A study of Mus musculus with 6 samples.

Results

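The interferon-inducible p200 family is a cluster of related genes on mouse chromosome 1 whose proteins pair a pyrin domain with HIN domains. The members described are the 7 genes of the deposited count matrix whose symbol is Ifi203, Ifi204, Ifi205, Ifi207, Ifi209, Ifi211 or Mndal, out of 19309 genes in all. They were listed by name, with earlier results of these data known, and all 7 passed the filter on low counts. In mm10 they lie between chr1:173630917-174031810, a span of 401 kb, with 6 on the minus strand and 1, Ifi209, on the plus strand.

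The study asked how soluble epoxide hydrolase (sEH), the enzyme made from Ephx2, takes part in TGF-β signaling in macrophages. Bulk RNA was sequenced from cultured bone marrow monocytes of 3 sEH-/- mice and 3 wild-type mice, and each library comes from a separate mouse. By the methods the bought strain was C57BL/6N, and littermates matched for age and strain were used, at 8 to 10 weeks for bone marrow. Females gave the cells of most experiments. Both genotypes are described with the same treatment. Cells grew for 7 days with 15 ng/mL each of GM-CSF and M-CSF, were turned to the inflammatory M1 state by 10 ng/mL LPS with 1 ng/mL IFN-γ, and then received TGF-β1 (10 ng/mL) to reach the M2c state, which is tied to the resolution of inflammation. By the labels the M1 step lasted 24 h and TGF-β1 was present for 48 h, whereas the M1 step of the written methods lasted 12 h. Every library was thus exposed to an interferon, and no library without it was sequenced.

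The library totals were 5818444, 5013265 and 4400197 counts in sEH-/- replicates 1, 2 and 3. In wild-type replicates 1, 2 and 3 they were 4632688, 6096440 and 5448287 counts. Ephx2 had 4, 2 and 1 counts in sEH-/- against 26, 49 and 57 in wild-type libraries, so the groups did not overlap and followed their labels. The macrophage label was checked against 7 marker genes, all of which had counts. By edgeR 0 of the 7 were called, beside 2.61% of all tested genes. At an unadjusted p below 0.05, 2 were higher by edgeR, beside 11.1% of all tested genes. DESeq2 and limma-voom also called 0, and counted 3 and 2 higher at that unadjusted p. The most abundant was Csf1r, and the markers summed to 1802, 2192 and 2253 CPM (counts brought to a common library total, with edgeR's TMM factors) in sEH-/- against 2043, 1621 and 1698 in wild-type libraries.

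Proteins of this family sense or bind DNA. The HIN domain holds double-stranded DNA, and the pyrin domain binds other pyrin domains, through which AIM2 recruits the adaptor ASC and starts an inflammasome. Interferons raise many of these genes in macrophages: type I interferon leads to transcription through the interferon-stimulated response element (ISRE), and IFN-γ through the GAS element.

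RefSeq promoter windows of GRCm38.p6, the same assembly as mm10, reach from 250 bases before to 50 bases after a gene's start, and 6 of the 7 members have at least 1 window. No window is held for Ifi204. The windows were searched on both strands for GAAANNGAAA (other strand TTTCNNTTTC), the core of an ISRE-type element, and for TTCNNNGAA, the letters of a GAS-type element, which read the same on both strands. The 6 members have 8 windows, since Ifi203 and Mndal each have a pair for different starts. ISRE letters stood in 6 of these 8 windows, covering 5 of the 6 members, against 3.44% of all 32851 windows. The windows without them were that of Ifi209 and the more upstream window of Ifi203 (chr1:173942623-173942922). GAS letters stood in 0 of the 8, against 8.3% of all windows. The stretches printed here show how alike these promoters are: each runs 5′ to 3′ on the gene's strand, with the 10 bases of the element in capitals and 20 bases on either side. For Ifi209, which lacks the letters, the capitals mark the 10 bases that line up with the element of Ifi203 when the windows are aligned without gaps. They come from chr1:173942498-173942547 (Ifi203, minus), chr1:173880194-173880243 (Mndal, minus), chr1:173913054-173913103 (Ifi211, minus), chr1:174031860-174031909 (Ifi205, minus), chr1:173741821-173741870 (Ifi207, minus) and chr1:173630760-173630809 (Ifi209, plus).
Ifi203: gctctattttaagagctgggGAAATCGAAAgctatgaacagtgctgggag
Mndal: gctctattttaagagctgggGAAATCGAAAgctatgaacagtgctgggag
Ifi211: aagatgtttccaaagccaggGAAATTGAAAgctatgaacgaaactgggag
Ifi205: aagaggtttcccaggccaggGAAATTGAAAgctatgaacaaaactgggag
Ifi207: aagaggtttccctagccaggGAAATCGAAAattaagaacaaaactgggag
Ifi209: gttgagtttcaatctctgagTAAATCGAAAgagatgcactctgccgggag

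All 50 bases of Mndal were identical to those of Ifi203, and 35 of 50 were in Ifi211, 34 in Ifi209, 33 in Ifi205 and 32 in Ifi207. Counted from 1 at the first capital, the element of Ifi209 differs from that of Ifi203 by G1T, and those of Ifi211 and Ifi205 differ by C6T. Distances are from the RefSeq start of the window that holds the stretch. In Ifi203, Ifi205 and Mndal that start lies inside the span GENCODE gives the gene. The first base of the element lay at -35 in Ifi203, -36 in Mndal, -37 in Ifi211, -41 in Ifi207, -79 in Ifi209 and -134 in Ifi205. Another copy of the letters lay 24 bases after the start in Ifi205 and, in a further window, at -54 in Mndal, both read on the opposite strand. A match is a description of letters and shows neither a bound site nor a cause.

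The members also share coding sequence, which bears on what a count means here, because the authors discarded reads that mapped to several places. The read length is not given, so a word length of 50 bases was chosen. In the GENCODE M21 transcripts, 72.8% of the 50-base words of Ifi211 also occur in another gene, leaving 471 words of its own. The share was 33.7% in Ifi209, 703 of 3512 words in Ifi204, 19.6% in Mndal, 18.6% in Ifi205, 12.2% in Ifi203 and 7.3% in Ifi207. Of the shared words, 774 lie in both Ifi211 and Ifi205, and 1182 in both Ifi209 and Ifi214, a gene of the cluster outside the list. The longest run of identical coding bases between a pair of members was 495 bases, in Ifi205 and Ifi211. The end of that run is printed here to show where reads from this pair can first be told apart: 60 identical bases, then 60 more of which a single base differs, within 1 exon of each gene (Ifi205 chr1:174015026-174015145 and Ifi211 chr1:173899411-173899530, both minus strand). The capital marks the base that differs, G61T from Ifi205 to Ifi211, counted from 1 at the first printed base.
Ifi205: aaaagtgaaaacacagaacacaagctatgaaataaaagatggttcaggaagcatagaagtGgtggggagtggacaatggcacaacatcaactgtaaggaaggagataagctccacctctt
Ifi211: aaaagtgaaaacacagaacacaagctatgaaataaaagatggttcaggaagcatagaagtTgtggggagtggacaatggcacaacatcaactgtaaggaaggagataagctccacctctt

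**Figure D1:**
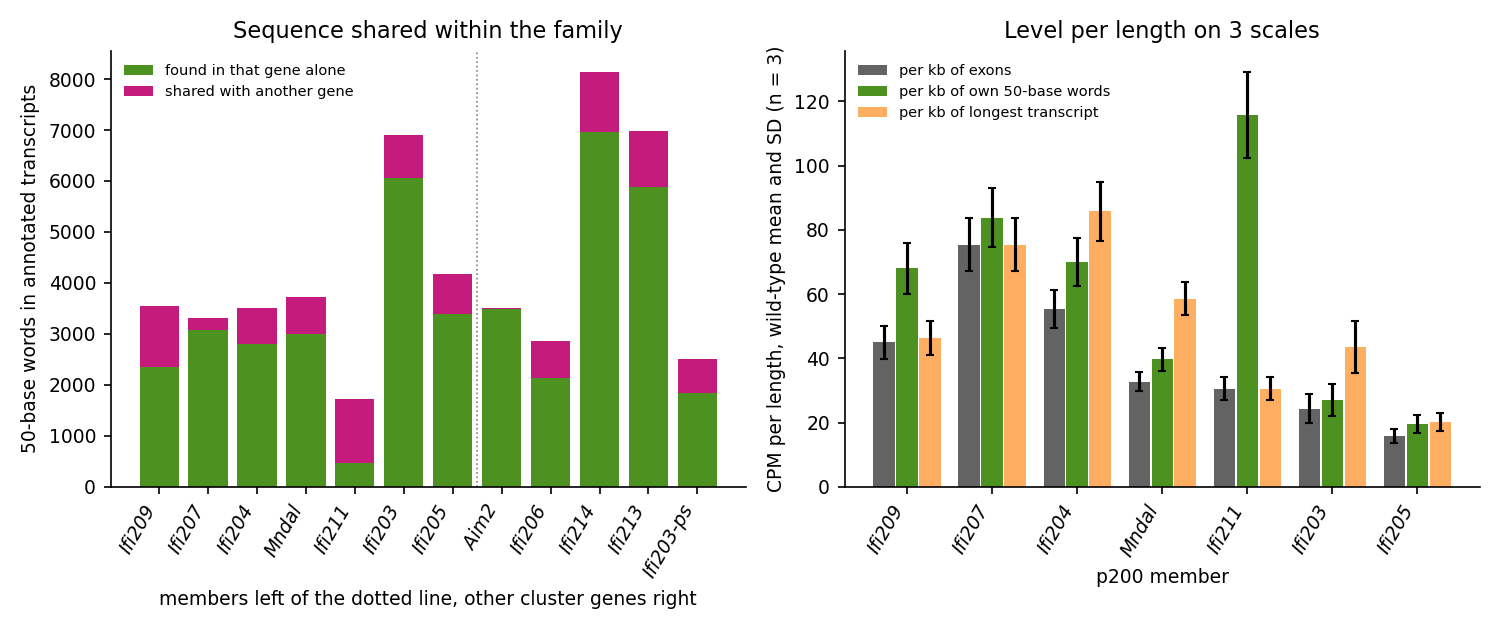
Left: number of 50-base words in the annotated transcripts of each p200 gene, split into words of that gene alone and words shared with another gene, with Ifi211 down to 471 of its own. Right: wild-type level of each member (mean and SD of 3 libraries) as CPM per kb of exons, per kb of own words (counting each word as a base) and per kb of the longest transcript; Ifi211 stands at 30.5 per kb of exons and at 115.8 per kb of own words.

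The only contrast of the design sets the 3 sEH-/- against the 3 wild-type libraries. A gene was called when edgeR's quasi-likelihood test gave an adjusted p below 0.05 over all 13785 tested genes and a change above 1.5-fold, the thresholds of the study. By that rule 360 genes, 2.61% of those tested, were called: 208 higher and 152 lower in sEH-/-. This total moved with the libraries used, to 518 without sEH-/- replicate 1, 96 without sEH-/- replicate 2 and 570 without sEH-/- replicate 3. On dropping a wild-type library it was 625 (replicate 1), 25 (replicate 2) or 6 (replicate 3).

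Ifi204 (ENSMUSG00000073489, chr1:173747293-173766943) encodes p204, usually set beside human IFI16, a sensor of DNA that signals through STING. Its level was 196, 233 and 230 CPM in sEH-/- replicates 1, 2 and 3, and 220, 179 and 192 CPM in wild-type replicates 1, 2 and 3. The groups overlapped, since sEH-/- replicate 1 lay below wild-type replicate 1. The means were 219.6 ± 20.4 CPM in sEH-/- and 196.9 ± 20.9 in wild-type (SD, n = 3). The log2 fold change was 0.16 (95% interval -0.06 to 0.37), the smallest of the 7, with an adjusted p of 0.364 in edgeR's quasi-likelihood test.

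Ifi207 (ENSMUSG00000073490, chr1:173723427-173741747), reported to promote cytokine transcription in macrophages, had the highest counts of the family, 1308 to 1637 per library. It stood at 280, 316 and 307 CPM in sEH-/- against 288, 232 and 254 CPM in wild-type libraries. Again sEH-/- replicate 1 fell below wild-type replicate 1, and the other sEH-/- libraries lay above all wild-type libraries. Its log2 fold change was 0.22 (0.02 to 0.43), with an adjusted p of 0.179 by edgeR.

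Ifi205 (ENSMUSG00000054203, chr1:174011998-174031810) has been described as a regulator of ASC expression in macrophages. Its levels were 78.5, 91.0 and 80.9 CPM in the sEH-/- and 74.1, 55.7 and 68.7 CPM in the wild-type libraries. Every sEH-/- library was above every wild-type library, with a gap of a few CPM between sEH-/- replicate 1 and wild-type replicate 1. The means were 83.5 ± 6.62 and 66.1 ± 9.47 CPM (SD, n = 3). The log2 fold change was 0.34 (0.10 to 0.59), with an adjusted p of 0.0969 by edgeR.

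Ifi203 (ENSMUSG00000039997, chr1:173920407-173942672), a member with several annotated transcripts, moved most. Its counts were 1235, 1315 and 952 in sEH-/- against 883, 825 and 900 in wild-type libraries. That is 211, 265 and 221 CPM against 194, 134 and 161 CPM. All 3 sEH-/- libraries were above all 3 wild-type libraries, sEH-/- replicate 2 was well above the others, and wild-type replicate 2 was the lowest. The means were 232.5 ± 28.9 CPM in sEH-/- and 163.1 ± 30.2 in wild-type (SD, n = 3). The log2 fold change was 0.52 (SE 0.131, 95% interval 0.23 to 0.81), a 1.43-fold change. By edgeR's quasi-likelihood test the unadjusted p was 0.00256 and the adjusted p 0.0543, by DESeq2 the adjusted p was 0.00241, and by limma-voom 0.0571. Without wild-type replicate 1 the change was 0.66 with an edgeR adjusted p of 0.017, the only alternative of 16 in which Ifi203 was called; over the 16 the adjusted p ran from 0.0024 to 0.22.

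Ifi209 (ENSMUSG00000043263, chr1:173630917-173647928) measured 186, 214 and 202 CPM in sEH-/- against 178, 141 and 160 CPM in wild-type libraries. The groups did not overlap, although sEH-/- replicate 1 and wild-type replicate 1 were close. Its log2 fold change was 0.33 (SE 0.094, 95% interval 0.13 to 0.54), with an adjusted p of 0.0681 by edgeR and 0.0306 by DESeq2. Mndal (ENSMUSG00000090272, chr1:173849126-173880881), named for its likeness to the myeloid cell nuclear differentiation antigen, measured 124, 153 and 151 CPM in sEH-/- against 128, 107 and 121 CPM in wild-type libraries. Here the groups overlapped through sEH-/- replicate 1 and wild-type replicate 1. The log2 fold change of Mndal was 0.27 (0.05 to 0.48), with an adjusted p of 0.136 by edgeR. Ifi211 (ENSMUSG00000026536, chr1:173896345-173913046), the member with the least sequence of its own, measured 55.8, 67.6 and 65.6 CPM in the sEH-/- and 61.8, 49.98 and 51.8 CPM in the wild-type libraries. As in Mndal, replicate 1 of each genotype crossed. Its log2 fold change was 0.21 (-0.03 to 0.45), with an adjusted p of 0.280 by edgeR.

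**Figure D2:**
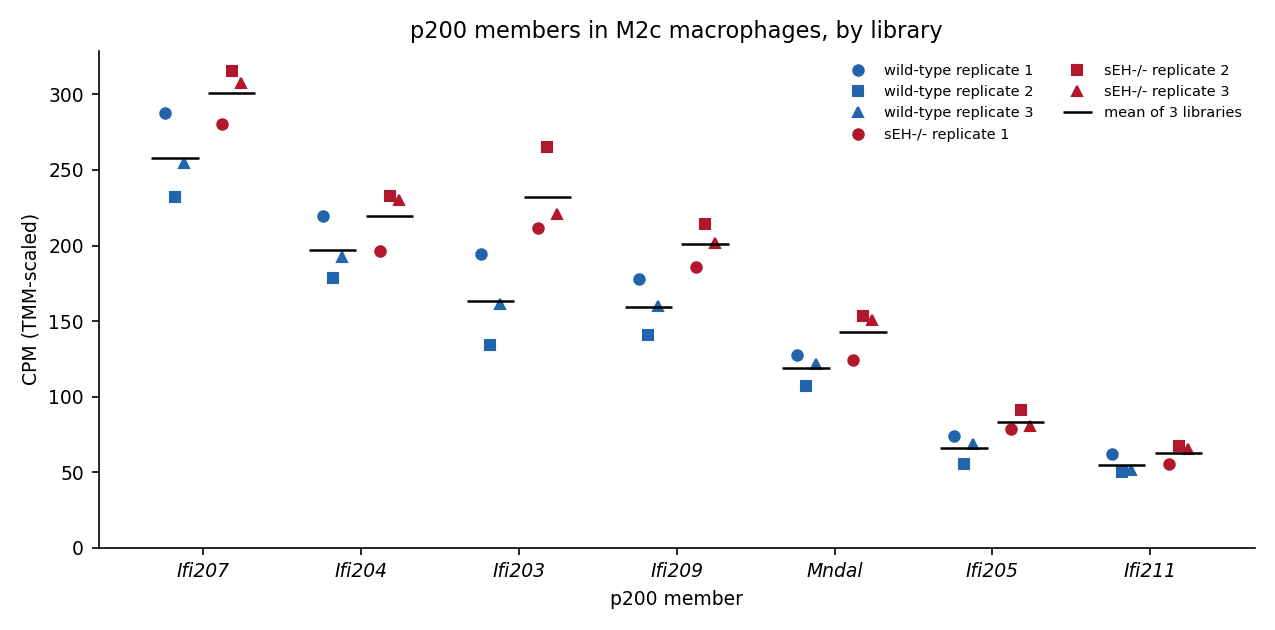
Level of the 7 members in each library, in TMM-scaled CPM (vertical axis), by member and genotype, with 1 point per library and a line at the mean of 3. In all 7 members the highest point is sEH-/- replicate 2 and the lowest is wild-type replicate 2, and only Ifi203, Ifi209 and Ifi205 show no overlap between genotypes.

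Over the family, the log2 fold change was above 0 in 7 of 7 members, with a median of 0.27, where 49.8% of all tested genes were above 0 with a median of -0.00092. By edgeR 0 of 7 were called in either direction, beside 2.61% of all tested genes called and 1.51% called higher. DESeq2 also called 0 of 7 (3.42% of all tested genes) and limma-voom 0 of 7 (2.23%). At an unadjusted p below 0.05, 5 of 7 were higher by edgeR, where 11.1% of all tested genes were, and DESeq2 and limma-voom each counted 5. At an adjusted p below 0.05 with no fold threshold, edgeR and limma-voom counted 0 of 7 (2.39% of all tested genes were higher by that rule in edgeR). DESeq2 counted 2 of 7, Ifi203 and Ifi209, beside 3.63% of all tested genes. The edgeR count of 0 turns on such choices, since Ifi203 was below 0.05 in 6 of its 16 alternatives, Ifi209 in 4 and Mndal in 1. The genotypes did not overlap in 3 of 7, all higher in sEH-/-, beside 11.8% of all tested genes. The members share libraries and some sequence, so these counts are not independent of each other. The members were also chosen with earlier results of these data known. A positive shift was not theirs alone. The log2 fold changes of the 7 macrophage markers ran from 0.07 (Cd68) to 0.45 (Fcgr1), with a median of 0.17. In bulk RNA, a change in RNA per cell and a change in the share of cells that carry the RNA cannot be told apart.

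The intervals bound the sizes that these libraries allow. In 5 of 7 members the upper 95% limit was below a 1.5-fold change, as it was in 10657 of the 13785 tested genes. Ifi203 was the clear exception, with limits of 1.17-fold and 1.75-fold, and the upper limit of Ifi205 was at the threshold. The lower limit was above 0 in all members but Ifi204 and Ifi211. These are the same 5 members that were higher at an unadjusted p below 0.05 by edgeR, where 11.1% of all tested genes were.

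**Figure D3:**
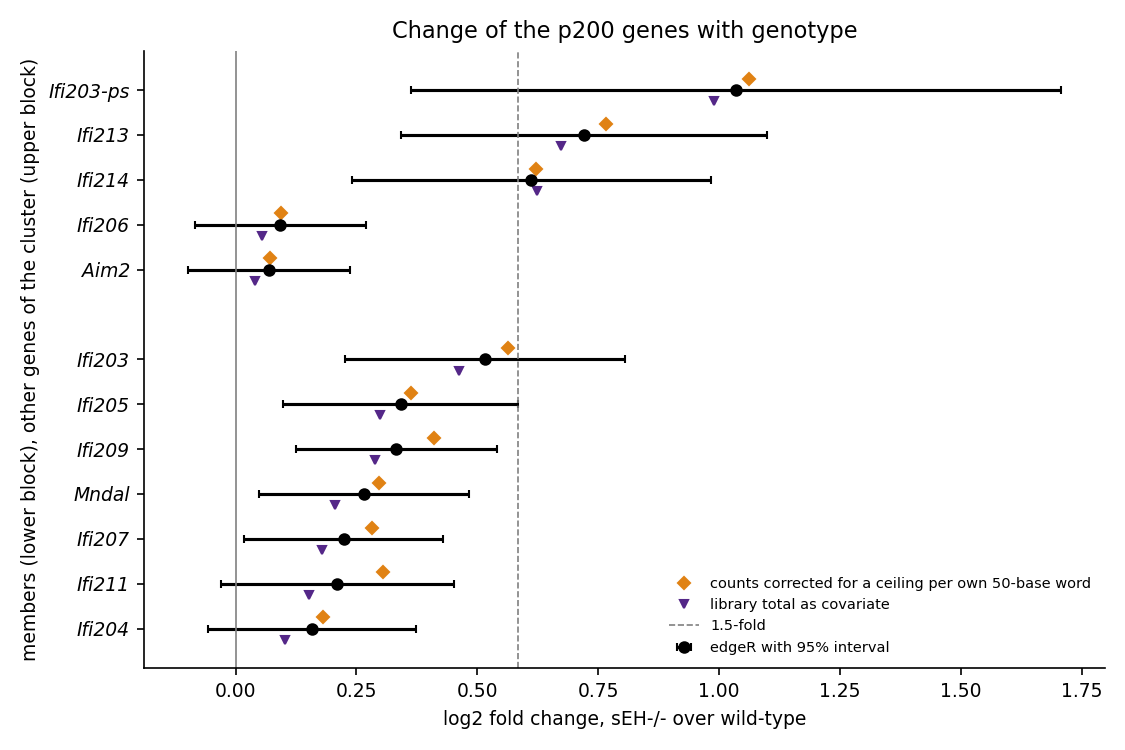
Log2 fold change (sEH-/- over wild-type, horizontal axis) of the 7 members and of 5 other genes of the cluster, as edgeR estimates with 95% intervals, with estimates after a ceiling correction of the counts and with the library total as a covariate; the dashed line is 1.5-fold. Members run from 0.16 in Ifi204 to 0.52 in Ifi203, and both sets of other estimates stay above 0.

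The members had similar profiles over the 6 libraries. On the log2 scale, with the wild-type average set to 0, the median of the members was 0.12, 0.37 and 0.30 in sEH-/- replicates 1, 2 and 3. It was 0.16, -0.15 and 0.0007 in wild-type replicates 1, 2 and 3. Wild-type replicate 1 thus stood slightly above sEH-/- replicate 1, while the remaining sEH-/- libraries stood above all wild-type libraries. The summed level of the 7 members was 1132, 1340 and 1258 CPM in sEH-/- against 1143, 898 and 1010 CPM in wild-type libraries, with the same crossing of both first replicates.

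Library depth was set beside these levels. Within wild-type, the library with the fewest counts (replicate 1) had the highest member levels and the library with the most (replicate 2) the lowest. In sEH-/-, the library with the most counts (replicate 1) had the lowest median, the highest levels were in replicate 2, and replicate 3 had the fewest counts. The part of depth in the member levels was not tested. The total of wild-type replicate 2 was 1.32 times that of replicate 1, yet the count of Ifi203 was 0.934 times as high, that of Ifi205 1.02 times, and the other members lay between 1.07 times (Ifi209) and 1.14 times (Mndal). The median of the 4499 tested genes in the members' range of counts per exonic base was 1.30 times, that of 3007 genes with a mean of 50 or more counts and under 0.05 counts per base 1.44 times, and that of 92 genes above 0.5 counts per base 1.10 times. Between sEH-/- replicates 1 and 3, whose totals differed by 1.32 times, the member counts differed by 1.11 times (Mndal) to 1.32 times (Ifi205), with Ifi203 at 1.30 times. The medians of the same sets of genes were 1.30, 1.48 and 1.07 times, so Ifi203 and Ifi205 were near the median of genes in the members' range here and below it in wild-type. The authors removed duplicate reads, and the highest mean count of any tested gene was 0.972 per exonic base, whereas the members held 0.0927 (Ifi205) to 0.423 (Ifi207). Per own 50-base word the members held 0.114 (Ifi205) to 0.645 (Ifi211).

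**Figure D4:**
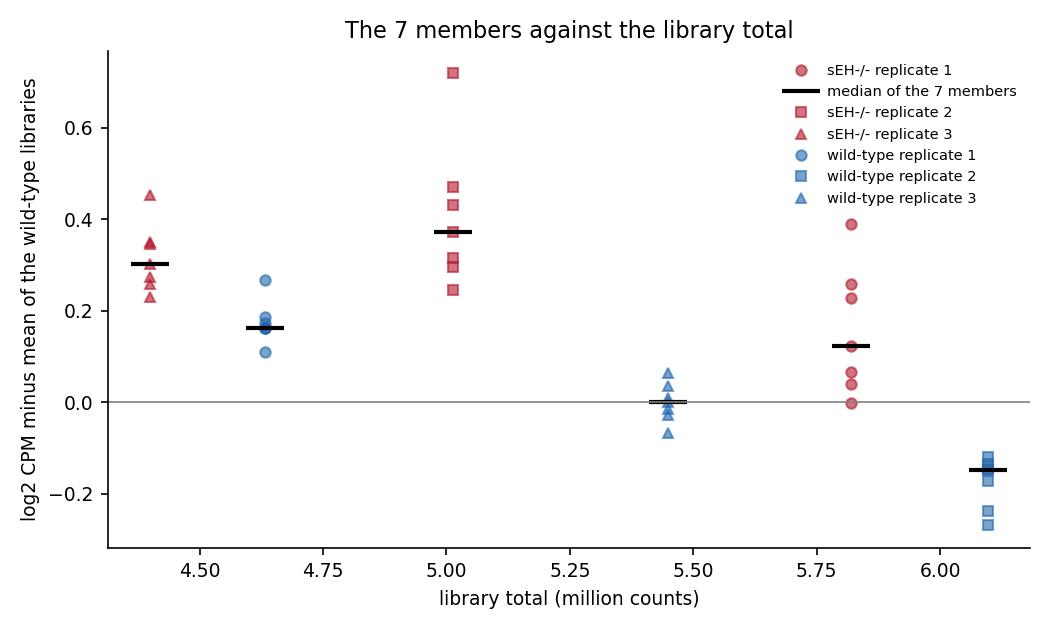
Level of each member in each library, as log2 CPM minus the mean of the wild-type libraries (vertical axis), against the library's total count (horizontal axis), with 1 point per member and a line at the median of 7. The medians run from -0.15 in wild-type replicate 2, the deepest library, to 0.37 in sEH-/- replicate 2.

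With the log2 library total as a covariate, all 7 log2 fold changes were smaller and above 0: 0.46 in Ifi203, 0.30 in Ifi205, 0.29 in Ifi209, 0.21 in Mndal, 0.18 in Ifi207, 0.15 in Ifi211 and 0.10 in Ifi204. When counts were corrected for a ceiling of 1 count per own 50-base word they were larger: 0.56 in Ifi203, 0.41 in Ifi209, 0.36 in Ifi205, 0.30 in Ifi211 and Mndal, 0.28 in Ifi207 and 0.18 in Ifi204. Under that correction Ifi209 had an edgeR adjusted p of 0.044, within a range of 0.031 to 0.29 over its 16 alternatives, and stayed under 1.5-fold. In the range of counts per base that the members occupy, 55.8% of genes had a log2 fold change above 0, with a median of 0.02, and 12.6% did not overlap with sEH-/- higher. Above 0.5 counts per base 85.9% were above 0 (median 0.09), and among those with a mean of 50 or more counts and under 0.05 counts per base 41.6% were (median -0.06).

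The make-up of the family was compared as shares, with a permutation test that cannot reach 0.05 with 3 against 3 libraries. As a share of the summed counts of the 7 members, Ifi203 took 18.7%, 19.8% and 17.6% in the sEH-/- and 17.0%, 14.9% and 16.0% in the wild-type libraries. Ifi204 took 17.3%, 17.4% and 18.3% in the sEH-/- and 19.2%, 19.9% and 19.1% in the wild-type libraries. The first share was higher and the second lower in every sEH-/- library than in every wild-type library. Among the others, Ifi209 took a higher share (16.2% on average against 15.7%) and Ifi207 a lower share (24.2% against 25.4%) with no overlap, while Ifi205, Mndal and Ifi211 overlapped. For each of the 4 without overlap the exact two-sided permutation test gave p = 0.1, the smallest that 3 against 3 libraries can give, or 0.175 after Benjamini-Hochberg adjustment over the 7 shares. Shares sum to 100, so a rise in Ifi203 lowers the others.

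Levels of different genes were compared as wild-type CPM per kb of exons (SD, n = 3). Ifi207 was the highest at 75.4 ± 8.17, followed by Ifi204 at 55.3 ± 5.86 and Ifi209 at 45.0 ± 5.20. Mndal at 32.7 ± 2.91, Ifi211 at 30.5 ± 3.56 and Ifi203 at 24.3 ± 4.50 came next, and neighbours among these 3 overlapped. Ifi205 was the lowest at 15.8 ± 2.27, so the highest level was 4.78 times the lowest. In sEH-/- the order was the same, from 88.0 ± 5.44 in Ifi207 to 19.99 ± 1.59 in Ifi205, and Ifi204 and Ifi209 overlapped as well. The order depends on the length used. Per kb of own 50-base words Ifi211 moved to the top at 115.8, ahead of Ifi207 at 83.8, and per kb of the longest transcript Ifi204 led at 85.8 and overlapped Ifi207 at 75.4, while Ifi205 was the lowest on all 3 scales.

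Of 12 further genes listed for the cluster, 6 had counts and 5 were tested, and Pyhin1, Ifi202b, Mnda, Pydc3, Pydc4 and Pydc5 were not in the matrix. Aim2, the inflammasome sensor of cytosolic DNA, had 122, 140 and 138 CPM in sEH-/- against 128, 121 and 131 CPM in wild-type libraries. Its groups overlapped, and the log2 fold change was 0.07 with an adjusted p of 0.632 by edgeR. Ifi206 stood at 0.09 (adjusted p 0.529 by edgeR). On dropping a library the change of Aim2 ranged from 0.04 to 0.13 and that of Ifi206 from 0.05 to 0.16, with neither called. Ifi213 had 937, 946 and 629 counts in sEH-/- against 592, 455 and 559 in wild-type libraries, or 165.7 ± 23.0 against 101.4 ± 28.2 CPM (SD, n = 3). Every sEH-/- library of Ifi213 was above every wild-type library, and it was the only gene of the 5 called by edgeR and by limma-voom, while DESeq2 also called Ifi203-ps.

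The log2 fold change of Ifi213 was 0.72 (95% interval 0.34 to 1.10), with an adjusted p of 0.0470 by edgeR. It was no longer called in 6 of 16 alternatives: with the replicate block, with library total as covariate, and on dropping replicate 1 or replicate 2 of sEH-/- or replicate 2 or replicate 3 of wild-type. Over all 16 its change lay between 0.53 and 0.93 and its adjusted p between 4.4e-04 and 0.18. Ifi214 had 164, 135 and 98 counts against 77, 86 and 114 in wild-type, a change of 0.61 with an adjusted p of 0.0644 by edgeR. The pseudogene Ifi203-ps, which shares 610 words with Ifi203, had 127, 137 and 71 counts against 69, 36 and 66, a change of 1.04 with an adjusted p of 0.0751 by edgeR. In CPM neither gene overlapped between genotypes. With no filter on low counts both were called, Ifi214 was also called on dropping replicate 3 of sEH-/-, and Ifi203-ps on dropping replicate 1 of wild-type. Ifi208 had 1, 2 and 2 counts in the sEH-/- and 0 in each wild-type library, too few to test.

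The promoter window of Ifi213 also holds the ISRE letters, at -73 from its start (chr1:173599316-173599365, minus strand). Of the 6 other cluster genes with a window, 4 hold them. The stretch of Ifi213 is printed beside that of Ifi206 (-40, chr1:173491329-173491378, minus strand), because Ifi213 was called and Ifi206, with a log2 fold change of 0.09, was not. In each, 29 of 50 bases are identical to those of Ifi203, and the stretch of Ifi208 is the same as that of Ifi213. Capitals again mark the element.
Ifi213: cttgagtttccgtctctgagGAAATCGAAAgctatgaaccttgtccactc
Ifi206: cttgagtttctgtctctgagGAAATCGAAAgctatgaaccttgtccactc

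Across the matrix, 402 tested genes had the ISRE letters in a window, of which 14 were called higher and 4 lower (4.48%), with a median log2 fold change of 0.07. Among 9702 tested genes with a window but without the letters 2.69% were called, with a median of -0.01. No test of this difference was made. Among the members, the estimated change of Ifi209, without the letters, was within the range of the 5 members that have them. Whether the letters bear on the change of any single gene was not tested.

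Outside the family, 2 tested genes lie within 1 Mb of the members. Dusp23, a phosphatase, had 182, 179 and 130 counts in sEH-/- against 126, 155 and 158 in wild-type libraries, a log2 fold change of 0.27 with an adjusted p of 0.216 by edgeR. Olfr433, an olfactory receptor, had 16, 10 and 10 counts against 4, 5 and 6, a change of 1.34 with an adjusted p of 0.0640 by edgeR. In CPM the sEH-/- libraries of both were above the wild-type libraries, as in 11.8% of all tested genes. Another 6 genes there had too few counts to test.

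The profile of the members over the 6 libraries was not theirs alone. Out of 10265 candidates averaging 50 counts or more, those close to the members' median profile, by root mean square difference in log2 CPM, included Pitpna (0.0214), Fermt3 (0.0249), Nono (0.0308), Parp9 (0.0323), Rhog (0.0328), Alpk1 (0.0328) and Arpc1b (0.0332). They were chosen for this likeness, which includes the difference between genotypes, so no test of them is given. Of the members themselves, Ifi207 was closest to the median profile (0.036) and Ifi203 farthest from it (0.20).

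The rest of the pathway was followed in 5 lists with 74 tested genes. The lists were chosen with earlier results of these data known, so their counts are a description and not a test. By edgeR 7 of the 74 were called higher and 0 lower, with 38 higher and 2 lower at an unadjusted p below 0.05. Of all tested genes 1.51% were called higher and 11.1% were higher at an unadjusted p below 0.05. DESeq2 called 9 and limma-voom 6, all higher. The edgeR count of 7 became 2 on dropping replicate 2 of either genotype, 0 on dropping replicate 3 of wild-type, and 4 with the library total as a covariate. Of 12 genes that sense DNA or relay it through STING, 1 was called, the kinase Ikbke, with 1184, 1271 and 927 counts against 774, 720 and 802 in wild-type. Its log2 fold change was 0.65 with an adjusted p of 0.0297 by edgeR, and the call was lost on dropping sEH-/- replicate 2 (0.56), replicate 2 of wild-type (0.52) or replicate 3 of wild-type (0.65). The median of the list was 0.12. Of its most abundant uncalled genes, Zbp1 stood at 0.40 (adjusted p 0.0775 by edgeR), Lrrfip1 at 0.14, Samhd1 at 0.10 and Trim56 at -0.0015, with a sign that changed among the alternatives. Among 7 partners of the ASC inflammasome the called genes were Nlrp3 (0.97) and Il1b (2.31), while the adaptor gene Pycard was at 0.02 (with a sign that changed among the alternatives), Casp1 at 0.11, Gsdmd at 0.19 and Casp4 at 0.29. Both called genes lost the call without wild-type replicate 3, where their changes were 0.92 (Nlrp3) and 2.34 (Il1b).

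On the interferon side, 0 of 12 genes of type I interferon receptor signaling were called by edgeR, with 5 higher at an unadjusted p below 0.05 and a median of 0.20, and DESeq2 and limma-voom called 0 as well. In that list Stat2 was at 0.41 (adjusted p 0.0508 by edgeR and 0.00146 by DESeq2), Irf7 at 0.18, Ifnar1 at 0.14 and Jak1 at -0.13. Of 14 genes of the IFN-γ receptor and GAS targets 0 were called by edgeR, with 2 higher and 2 lower at an unadjusted p below 0.05 and a median of 0.05, and the other tools called 0. There Irgm1 was at 0.09, Tap1 at 0.03, Gbp2 at 0.01 and Irf8 at -0.01, and in the last 3 the sign changed among the alternatives. Of 29 ISRE targets, 4 were called higher and all 29 had a log2 fold change above 0, with a median of 0.34, where 1.51% of all tested genes were called higher and 49.8% were above 0. The called genes were Cmpk2 (0.97), Oas2 (0.99), Ifit3b (1.39) and Ifit1bl1 (1.74), while the more abundant Parp14, Oas3, Slfn5 and Ifit2 lay between 0.15 and 0.34. All 4 lost the call on dropping replicate 2 of either genotype or replicate 3 of wild-type, and Cmpk2 also on dropping replicate 1 of sEH-/-. Without wild-type replicate 3 their changes were 1.03 (Cmpk2), 1.06 (Oas2), 1.54 (Ifit3b) and 1.95 (Ifit1bl1), and on dropping replicate 2 of wild-type 0.73, 0.76, 1.09 and 1.49. With the library total as a covariate Cmpk2, Oas2 and Ifit3b lost the call at changes of 0.96, 0.95 and 1.39, and by limma-voom Ifit1bl1 lost it at 1.72. The p200 median of 0.27 thus lay between the medians of the GAS and the ISRE lists, and the difference between lists was not tested. Members and lists alike were chosen with earlier results of these data known.

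**Figure D5:**
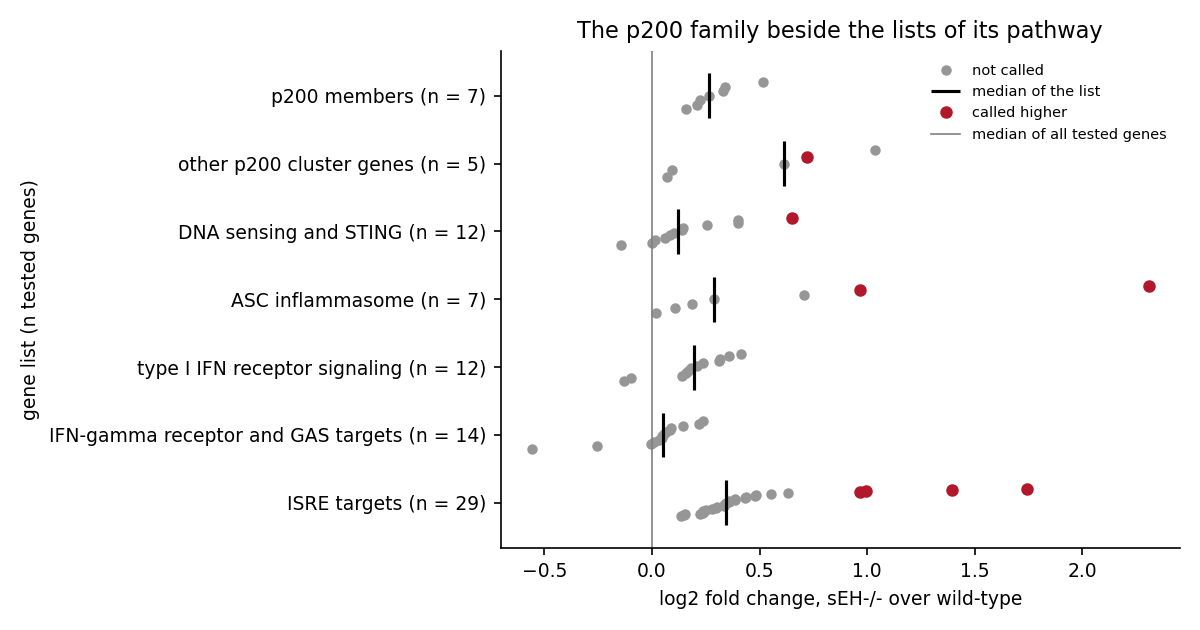
Log2 fold change (sEH-/- over wild-type, horizontal axis) of every tested gene in the p200 family, the rest of its cluster and 5 pathway lists, with 1 point per gene, called genes in red and a bar at the median of each list. The bars stand at 0.27 for the p200 members, 0.34 for the ISRE targets and 0.05 for the IFN-γ and GAS list.

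Markers of other cells were read in the same libraries, and their part in the member values was not tested. Of 6 monocyte markers, 5 were tested and 3 called higher in sEH-/-, beside 1.51% of all tested genes: Ly6c2 (1.24), Plac8 (2.35) and F13a1 (3.28). The list summed to 236, 261 and 332 CPM in sEH-/- against 251, 198 and 216 CPM in wild-type libraries, which overlap, and its most abundant gene, Chil3, was at 0.09. None of these 3 kept its edgeR call when wild-type replicate 3 was dropped, at changes of 1.30, 2.84 and 3.31. Plac8 also lost it on dropping wild-type replicate 2, and F13a1 on dropping sEH-/- replicate 2 or any wild-type library, by limma-voom and with the library total as a covariate. F13a1 rests largely on sEH-/- replicate 2, with 95 counts against 20 and 14 in the other sEH-/- libraries, and its change was 1.94 without that library. Neutrophil markers summed to 27.7, 31.3 and 28.98 CPM against 17.6, 19.3 and 20.97 CPM, with no overlap, as in 11.8% of all tested genes taken singly. Most of it was S100a8, the only one tested of the 6 in the matrix, which had a log2 fold change of 0.54, an adjusted p of 0.0570 by edgeR, and was called once sEH-/- replicate 1 was dropped and under both ceiling corrections.

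Conventional dendritic cell markers summed to 27.03, 29.1 and 57.7 CPM against 42.2, 58.9 and 46.8 CPM, led by Clec9a and with Cd209a at 0. Of the 3 tested, 0 were called and 1 was lower at an unadjusted p below 0.05 by each tool. By edgeR 1685 of all 13785 tested genes were lower at that p. Zbtb46 stood at -0.98, with an adjusted p of 0.115 by edgeR. Of the plasmacytoid list Tcf4 and Ccr9 were in the matrix, at 107, 124 and 105 CPM against 108, 103 and 94.3 CPM, nearly all Tcf4. Stromal markers summed to 21.9, 22.0 and 13.5 CPM against 8.79, 64.3 and 24.9 CPM, led by Col1a2 and highest in wild-type replicate 2. These 3 lists overlapped between genotypes. Lymphocyte markers came to 6 counts in all, of Klrb1c, and the most abundant erythroid marker, Klf1, to 38 counts.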

How the data were processed

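RNA-seq of 3 sEH-/- and 3 wild-type M2c macrophage libraries was taken from the deposited matrix, whose values are counts per gene made by the authors. The submitters' processing notes name Trimmomatic 0.39, STAR 2.7.7a with mm10, Picard 2.21.7 and featureCounts 1.6.5. By the study's methods, which name another library kit and other versions, these trimmed and aligned reads, removed duplicates and counted over exons, and reads that map to several places were dropped. Totals ran from 4400197 to 6096440 counts. 0 columns were left unused.

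In R 4.3.3, edgeR 4.0.16 (TMM, quasi-likelihood) tested the 13785 genes with a mean count above 5, which hold 99.8% of all counts, with Benjamini-Hochberg adjustment over all of them. DESeq2 1.42.0 and limma 3.58.1 (voom) served as alternatives. A gene was called at an adjusted p below 0.05 and a change above 1.5-fold. Shares were compared by an exact two-sided permutation test, which cannot go below 0.1 with 3 against 3. Intervals are 95% and take replicate spread into account. CPM on the log2 scale used a prior count of 0.5. Genes were located with GENCODE M21, and 50-base words were counted in its transcripts.

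Alternatives were other tools, scaling, filters, no fold threshold, a replicate block and leaving out each library in turn. The 2 corrections for a ceiling of the counts, the library total as a covariate, and the levels per own word and per longest transcript were chosen after seeing the data. The members and lists were chosen with earlier results of these data known. Genes named are all 7 members, every gene of the cluster with a count, in each list the called genes and otherwise the 4 with the highest mean count, the 8 most alike genes (1 is not reported), and tested neighbours within 1 Mb. The markers Ly6c2, Plac8, F13a1, S100a8 and Zbtb46 and the promoter windows of Ifi213 and Ifi206 were picked out after their values were seen.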

Additional observations from a re-analysis of the deposited data

How the results depend on the processing

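All 112 alternative fits of the 7 members had a positive log2 fold change, and a call was gained in 1: Ifi203 without wild-type replicate 1, at 0.66. The change of Ifi203 lay between 0.39 and 0.66, that of Ifi209 between 0.25 and 0.41, Ifi205 between 0.23 and 0.43, Mndal between 0.19 and 0.36, Ifi207 between 0.15 and 0.31, Ifi211 between 0.15 and 0.30 and Ifi204 between 0.09 and 0.24. The number of members called was 0 in every alternative except that one, so it ranged from 0 to 1 when a library was left out. Scaling moved the median of all genes by at most 0.02 on the log2 scale.

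The number of genes called over the whole matrix was 360, 234 with the replicate block, 171 with the library total as a covariate, 553 with no fold threshold, and 6 to 625 when a library was left out. In the pathway lists it was 7, 4 with that covariate, 12 with no fold threshold, and 0 to 10 when a library was left out. Of the 12 called genes named outside the members, 11 lost the call in some alternative. The other 1, Ephx2, kept it in the 15 alternatives run for it. Fits that leave out a library hold fewer samples, and apart from that the cause was not tested. Shares without overlap numbered 4 of 7, also per kb of exons. Leaving out a library, which cannot create an overlap, gave 4 to 5. The ratio of the highest to the lowest member level was 4.78 per kb of exons, 5.98 per own word and 4.27 per kb of longest transcript, since each scale divides by another length.

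Replicate numbers were not taken as pairs: deviations from the genotype mean in libraries of the same number correlated at -0.22, -0.46 and -0.064 across genes, which are not independent replicates, and the replicate block called 0 members. Between libraries of different number and genotype the correlations ran from -0.093 to 0.33, the highest for sEH-/- replicate 2 with wild-type replicate 1. Levels over words that are unique in the genome were planned and not run, since no genome sequence was at hand. Ifi211 had the fewest counts of the members, 281 to 335 per library, and genes under a mean of 5 counts were not tested.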
